A study of Homo sapiens with 2 samples.

Results

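This account covers 5 genes that govern passage from the G1 phase of the cell cycle into S phase, CCND1, CCNE1, CDK4, E2F1 and RB1, in a map of chromatin enriched with an antibody against EGR1. The genes were fixed by name, and every deposited interval that came within 10 kb of one of them, on either side or inside, was taken: 8 of the 7709 intervals. The map was made by ChIP-seq, in which sonicated chromatin is pulled down with an antibody and its DNA sequenced. The cells were t-HESC, an immortalised human line derived from the stroma of the endometrium. The cells carried no treatment and grew in medium with fetal bovine serum and puromycin. There was 1 ChIP library for EGR1 and 1 library of input DNA from the same line, neither with a replicate, and the interval list came from the former. Every value below describes that 1 library, so no comparison could be tested against the spread between cultures, and the read depth is unknown. Expression was not measured, so the endometrial identity of the cells could not be checked against marker genes. A deposited interval is a place where the authors' peak calling found enrichment. Enrichment over the input and the EGR1 motif under the intervals were not analysed here, so no interval is shown to be a site of EGR1 binding.

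EGR1 is a transcription factor with zinc fingers that contact GC-rich DNA, and serum and growth factors induce its gene within minutes. In G1, D-type cyclins such as cyclin D1 (CCND1) join the kinase CDK4 and phosphorylate the retinoblastoma protein (RB1), which holds E2F factors in check. Released E2F1 switches on genes for DNA replication, among them CCNE1, whose product cyclin E1 drives the last step into S phase with another kinase, CDK2. Endometrial stromal cells proliferate in each cycle before they differentiate into decidual cells.

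Deposited EGR1 intervals came within 10 kb of 3 of the 5 genes, and 6 of the 8 were at one of them. CCND1 had 6 intervals, all around its start. CDK4 had 1 interval, across its start. E2F1 had 1 interval, just past its far end and not at its start. CCNE1 and RB1 had none. The summit score, 1 whole number that the authors gave each interval, was 18 to 42 in the 8 intervals, against a median of 26 (quartiles 20 and 37, range 11 to 336) over all 7709. No source used here states its unit, and it serves only to rank intervals within this list. By score, 7 of the 8 were at or below the median of the list, and the CDK4 interval was the exception. Widths ran from 216 to 452 bp, with a median of 399 bp against 343 bp over the list.

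As a background for these counts, each chromosome was divided, from its first interval to its last, into tiles as long as a gene and its 10 kb flanks together. At least 1 interval lay in 6.64% of tiles of the CCND1 length (33.4 kb), 6.44% of the CCNE1 length (32.3 kb), 5.08% of the CDK4 length (24.7 kb), 6.17% of the E2F1 length (30.9 kb) and 26.6% of the much longer RB1 length (198 kb). Tiles take in gene-poor sequence and unsequenced gaps, and each of these 5 windows was placed on a gene. The share among genes was not analysed here, so 3 of 5 cannot be called many or few for genes. The 5 windows together held 25.04 intervals per Mb, against 2.65 per Mb over the whole list. Without CCND1, the other 4 windows held 2 intervals in 286 kb, or 6.99 per Mb.

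**Figure D1:**
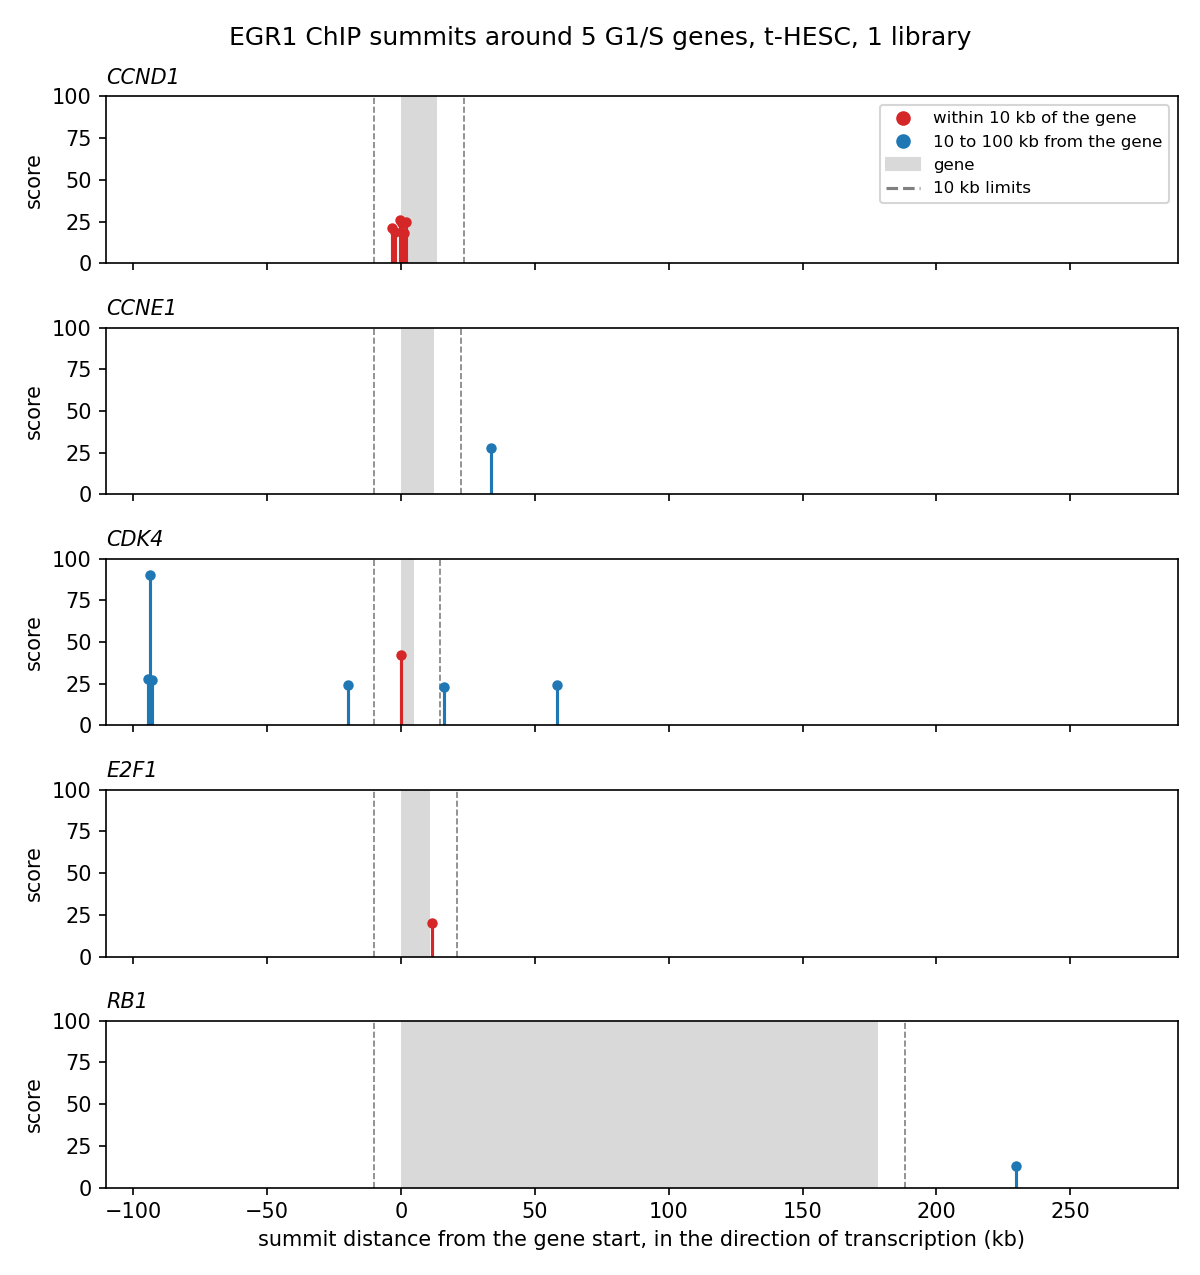
Summit score of each EGR1 interval (vertical axis, as deposited, unit not given) against its distance from the start of the gene in the direction of transcription (horizontal axis, kb), for 5 genes in 1 ChIP library. Grey marks the gene, dashed lines the 10 kb limits, red the intervals inside them and blue those 10 to 100 kb away. CCND1 has a tight group of 6, CDK4 a single interval at its start with a score of 42, and CCNE1 and RB1 have none inside the limits.

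CCND1, the D-type cyclin that couples growth factor signals to CDK4, carried the most intervals. The gene lies on chromosome 11 at positions 69455873 to 69469242 (GRCh37) and is read toward higher coordinates. The first interval, at positions 69452488 to 69452925, had a score of 21 and a summit 3233 bp before the gene start. The second, at 69453464 to 69453884, had a score of 19 and a summit 2177 bp before the start. These 2 form an upstream pair, 538 bp apart.

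The remaining 4 intervals of CCND1 gathered on its start and the first part of the gene. The third, at 69455498 to 69455793, had a score of 26, the highest of the 6 and equal to the median of the list, with its summit 257 bp before the start. The fourth, at 69455997 to 69456373, had a score of 24 and a summit 319 bp inside the gene. The start itself fell in the 203 bp between these 2 intervals, 80 bp from the edge of one and 124 bp from the edge of the other. The fifth, at 69457013 to 69457281, had the lowest score, 18, and a summit 1279 bp inside the gene. The last, at 69457796 to 69458011, had a score of 25 and lay 2031 bp inside. It was also the narrowest of the 6, at 216 bp, and 91.6% of all intervals were as wide or wider. Scores thus showed no single dominant summit: they lay between 18 and 26, with a median of 22.5, on both sides of the start.

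The 6 intervals took up a stretch of 5524 bp, from 3.38 kb before the CCND1 start to 2.14 kb inside the gene, and covered 36.5% of it. The other 11.2 kb of the gene, toward its end, held none, and neither did the 10 kb after it. Which of the intervals inside the gene lie in exons or introns was not analysed here. The gap between the upstream pair and the others was 1613 bp, the widest of the 5 gaps. When intervals with edges within 1000 bp were joined, the 6 became 2 sites of 2 and 4 intervals. Whether such neighbours are separate enriched places or 1 stretch divided by the peak caller was not tested.

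**Figure D2:**
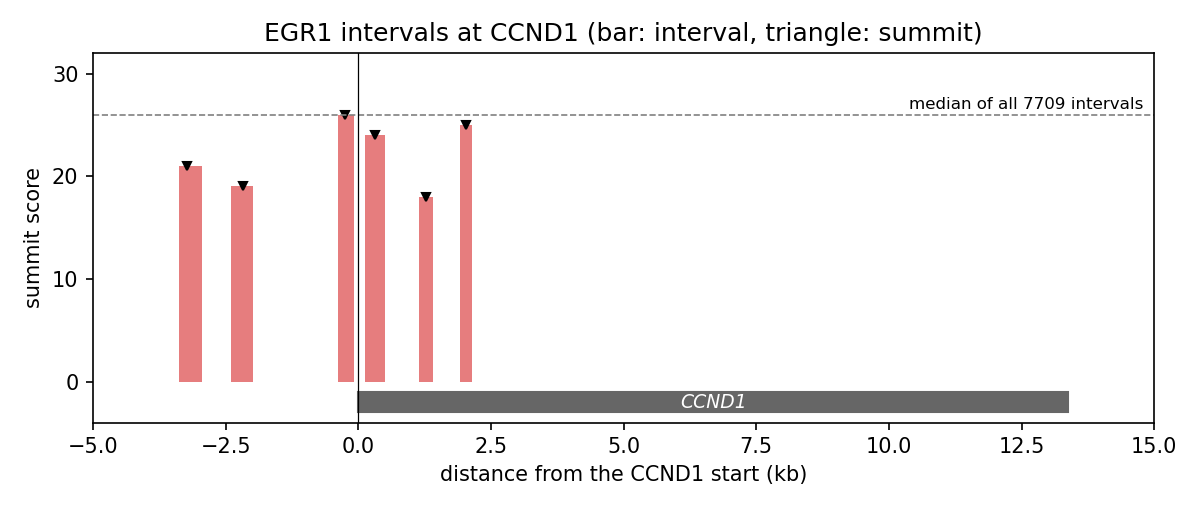
The 6 EGR1 intervals at CCND1: horizontal axis, distance from the gene start in kb; vertical axis, summit score. Bars span each interval, triangles mark summits, the dark bar is the gene and the dashed line is the median score of all 7709 intervals. The intervals lie on both sides of the start, with scores of 18 to 26, and none is in the later part of the gene.

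Nowhere else in the list were 6 consecutive EGR1 intervals, counted as deposited without joining, packed into so short a stretch. Of 7594 stretches of 6 consecutive intervals on one chromosome, only that of CCND1 was 5524 bp or shorter (0.0132%), and the median stretch was 914 kb long. The next shortest, on chromosome 7 at positions 100807890 to 100813833, measured 5944 bp, and its highest score was 79. The third, on chromosome 17 at 77770760 to 77777485, measured 6726 bp and reached a score of 25. In all, 7 stretches were within 10 kb, on 6 chromosomes, and their highest scores ran from 25 to 79 with a median of 36. CCND1, with 26, was 1 of 2 whose highest score did not exceed the median of the list. Among fixed tiles of the CCND1 length, 0.0275% held 6 or more intervals, which is 24 of 87197 tiles, and on chromosome 11 alone it was 0.0499%. Both measures, the stretches of 6 and the tiles with 6 or more, were chosen after the 6 intervals had been seen. The ranking depends on the number of intervals taken: 5 of 7617 stretches of 5 intervals were as short as the shortest at CCND1 (4548 bp, that stretch included), and 10 of 7640 stretches of 4 (2514 bp). Joining within 1000 bp left 6573 sites over the whole list, and stretches of joined sites were not ranked.

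The density at CCND1 did not extend into its surroundings. The nearest interval on the lower side ended 143 kb before the gene and had a score of 23. The nearest on the upper side began 647 kb beyond its end and had a score of 29. Within 1 Mb of the gene on each side there were 10 intervals, 6 of them those at its start. Over chromosome 11 as a whole, 7.84% of tiles of the CCND1 length held an interval.

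**Figure D3:**
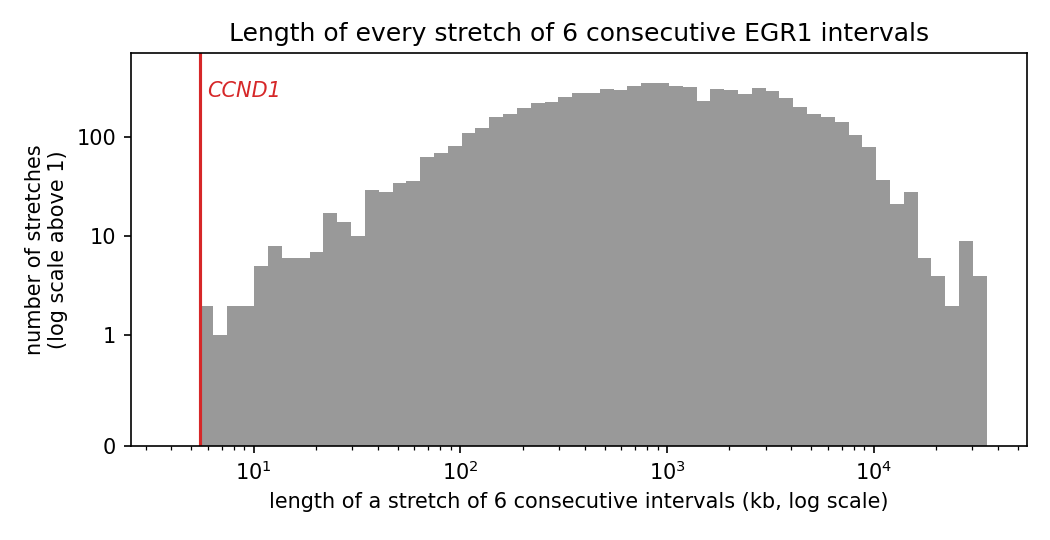
Number of stretches (vertical axis, log scale above 1) by the length of every stretch of 6 consecutive EGR1 intervals (horizontal axis, kb, log scale). Neighbouring stretches share intervals. The red line marks the stretch at CCND1, 5524 bp, at the extreme left of the distribution.

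CDK4, the kinase partner of cyclin D1, had the highest-scored interval of the 5 genes, and it lay across the gene start. The gene is on chromosome 12 at positions 58141510 to 58146230 (GRCh37) and is read toward lower coordinates. The interval, at 58145978 to 58146398, reached from 168 bp before the start to 252 bp inside the gene. Its summit was 102 bp inside by these gene ends and its width 421 bp. CDK4 is 137 bp longer by these ends than in the GRCh38.p14 RefSeq table. The side of the start on which the summit falls may thus depend on the annotation. The score of 42 was above the upper quartile of the list (37), with 1436 intervals scored higher and 19.6% at or above it. A single interval at this place had more score than any of the 6 at CCND1, whose highest was 26. Scores of the 2 loci come from 1 library, and no error could be attached to their difference.

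CDK4 lies among closely spaced genes, with TSPAN31 overlapping its end and MARCHF9 beyond its start in the RefSeq gene table. The next interval, at 58130005 to 58130316, had a score of 23 and lay 11.2 kb past the end of CDK4, just outside the 10 kb limit. On the other side, one at 58165788 to 58166001 had a score of 24 and lay 19.6 kb before the start. Neither touches CDK4. Within 1 Mb on each side there were 21 intervals, or 10.5 per Mb, the densest surroundings of the 5 genes, against 3.14 per Mb over chromosome 12, where 6.1% of tiles of the CDK4 length held an interval.

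E2F1, the factor that RB1 restrains, had 1 interval, and it was not at the gene start. The gene is on chromosome 20 at positions 32263292 to 32274210 (GRCh37) and is read toward lower coordinates. The interval, at 32262465 to 32262916, lay 376 bp past the end of the gene, and its summit was 668 bp past the end and 11.6 kb from the start. It had a score of 20, and 77.8% of all intervals scored as high or higher, although at 452 bp it was the widest of the 8. The neighbouring gene on that side is NECAB3 in the RefSeq gene table, so the interval stands between E2F1 and NECAB3 or within NECAB3, and distance to E2F1 does not assign it to either. The E2F1 start, its body and the 10 kb before the start held no interval. The next interval before the start was 177 kb away, with a score of 20, and the next past the end was 1191 kb away. On chromosome 20, 7.53% of tiles of the E2F1 length held an interval.

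CCNE1 and RB1 had no interval within 10 kb. CCNE1, the cyclin of the last step into S phase, is on chromosome 19 at positions 30302901 to 30315215 (GRCh37) and is read toward higher coordinates. Chromosome 19 is dense in EGR1 intervals (11.5 per Mb, and 23.2% of tiles of the CCNE1 length held one), yet within 1 Mb of CCNE1 on each side there was 1. That interval, at 30336366 to 30336605, had a score of 28 and began 21.2 kb past the end of the gene, on the side of the next gene, URI1. On the other side the nearest interval was 6870 kb away, across the centromere.

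RB1, the brake on E2F factors, is on chromosome 13 at positions 48877883 to 49056026 (GRCh37) and is read toward higher coordinates. Its window of 198 kb was the longest of the 5 and held no interval, as did 73.4% of tiles of that length. On chromosome 13 alone, which has 1.71 intervals per Mb, 21.6% of tiles of that length held one. The nearest interval, at 49107271 to 49107483, was 51.2 kb past the end of RB1, on the side of RCBTB2. Its score of 13 was near the bottom of the list, with 99.6% of intervals at or above it. Before the start, the nearest was 1749 kb away. The absence of a deposited interval says that none passed the authors' calling in this library. With the depth unknown, whether weaker enrichment was present at CCNE1 or RB1 was not detectable from the list.

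**Figure D4:**
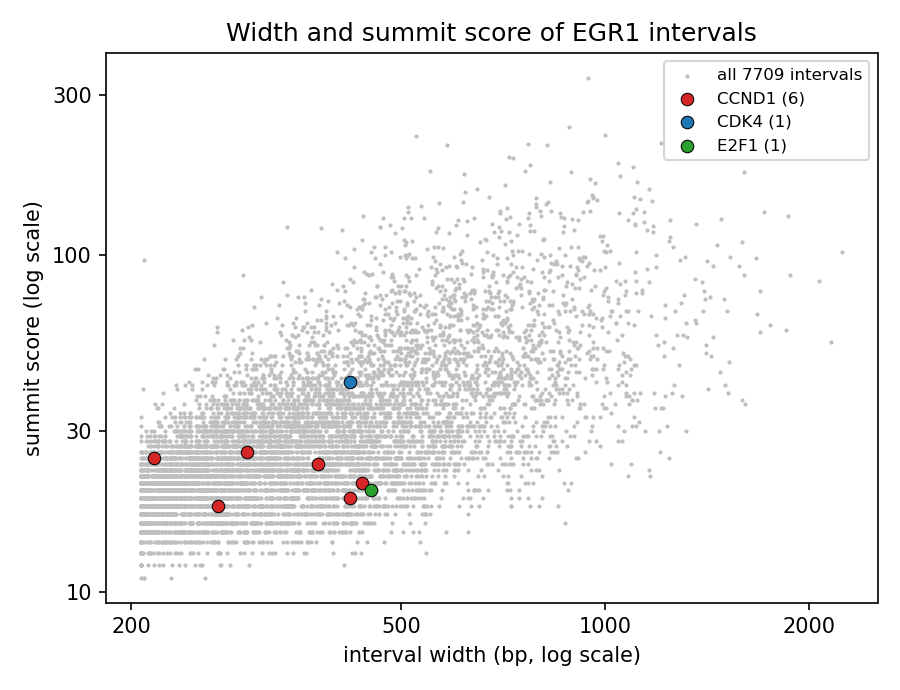
Summit score (vertical axis, log scale, unit not given) against interval width (horizontal axis, bp, log scale) for all 7709 intervals in grey and for the 8 intervals near CCND1, CDK4 and E2F1 in colour. The 6 at CCND1 and the 1 at E2F1 lie in the lower part of the cloud at scores of 18 to 26, and the CDK4 interval stands above them at 42.

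The promoters of CDK4, E2F1 and CCNE1 are shown because they contrast a start with an EGR1 interval against 2 starts without one. Each runs from 250 bases before to 50 after the start in RefSeq, build GRCh38.p14, 5′ to 3′ along the gene, and these positions are not comparable with the GRCh37 positions above. Capitals mark every match of GGGGCG on either strand, letters found in recognition sequences of both EGR1 and Sp1.
CDK4, chr12:57752261-57752560, minus strand: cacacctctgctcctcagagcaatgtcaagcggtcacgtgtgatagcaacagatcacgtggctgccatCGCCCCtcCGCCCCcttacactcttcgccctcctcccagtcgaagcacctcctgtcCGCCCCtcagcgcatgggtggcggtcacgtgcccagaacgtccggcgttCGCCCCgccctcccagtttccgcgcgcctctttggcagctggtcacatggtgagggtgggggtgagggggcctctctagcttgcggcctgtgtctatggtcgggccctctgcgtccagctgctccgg
E2F1, chr20:33686336-33686635, minus strand: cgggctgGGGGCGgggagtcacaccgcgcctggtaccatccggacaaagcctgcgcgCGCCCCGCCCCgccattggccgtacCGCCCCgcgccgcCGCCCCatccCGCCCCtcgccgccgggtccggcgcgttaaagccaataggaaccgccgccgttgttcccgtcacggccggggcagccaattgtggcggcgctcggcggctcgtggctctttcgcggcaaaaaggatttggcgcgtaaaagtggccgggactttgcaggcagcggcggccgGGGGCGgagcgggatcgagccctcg
CCNE1, chr19:29811741-29812040, plus strand: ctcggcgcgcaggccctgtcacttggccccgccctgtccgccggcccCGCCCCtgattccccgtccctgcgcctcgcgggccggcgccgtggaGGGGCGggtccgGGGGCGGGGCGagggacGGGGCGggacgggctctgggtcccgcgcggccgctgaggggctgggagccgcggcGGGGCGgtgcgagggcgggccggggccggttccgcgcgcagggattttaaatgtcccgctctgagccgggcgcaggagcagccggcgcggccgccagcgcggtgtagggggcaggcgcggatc

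GGGGCG matched 4 times in the CDK4 promoter, 7 times in that of E2F1 and 6 times in that of CCNE1, and 41.2% of the 35116 promoters of the same length hold it at least once. The CDK4 promoter thus had fewer such matches than those of E2F1 and CCNE1, whose starts had no interval. It was also the least GC-rich, at 66.0% G and C, against 73.3% for E2F1 and 81.0% for CCNE1, where the median promoter has 58.7%. CDK4 is 137 bp longer by the GRCh37 ends used here than in the GRCh38.p14 table, so its start may not be the same base in both, and the interval was not laid on the sequence base by base. The longer EGR1 words GCGTGGGCG and GCGGGGGCG, sought on both strands, were in none of these 3 promoters, and 5.77% of all promoters hold one of them. This says only that those letters are not in these windows. The related GC box GGGCGG, which overlaps GGGGCG where both are read in GGGGCGG, matched 3 times for CDK4, 6 for E2F1 and 7 for CCNE1, and 45.0% of promoters hold it. E2F1 alone of the 3 held the E2F word TTTGGCGC, with its first base 20 bases before the start. That word or TTTCGCGC is in 1.15% of promoters.

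Of 21 other G1/S genes listed for this account, 17 have a promoter in the same table, some with several starts. The EGR1 words were found in 2 of the 17: CCND3, a D-type cyclin related to CCND1, and CDKN2C, an inhibitor of CDK4. Over all 27305 genes in the table, counted the same way with any start sufficing, 6.95% held one. GGGGCG was found in 12 of the 17, against 44.5% of all genes, and the GC box in 15, against 48.3%. The E2F words were found in 4 of the 17, CDC25A, E2F2, RBL1 and TFDP1, against 1.4% of all genes. The list was chosen by function, its genes can have more starts than others, and the 27305 genes were not filtered by type of gene. These shares are thus a description. GRCh37 positions of the listed genes were not used here, so whether EGR1 intervals lie at these genes was not analysed.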

How the data were processed

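Chromatin of t-HESC was immunoprecipitated with an EGR1 antibody, and per the labels' protocols adapters were ligated and fragments of 200 to 300 bp were amplified by 18 cycles of PCR. Build GRCh37.p2 and the tools MACS2 2.1.0, MACS and BWA are named, per the submitters' processing notes. Their options, thresholds and treatment of duplicate reads are not stated in any source used here. The authors deposited interval and summit positions (unit: other) and 1 score per summit. The deposited scores are whole numbers of unstated unit. Read counts were not used, so the depth per sample is unknown.

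Interval starts were read as BED starts and are printed 1-based. Gene ends were given on GRCh37 with the choice of members. Strands came from the RefSeq promoter table and, for CCND1, from textbook knowledge. An interval counted as near a gene when any base lay within 10 kb of it. Distances to a gene start run from the deposited summit. Of all summits, 77.2% lie on multiples of 32 bp, as do 6 of the 8 near these genes, so most distances are no finer than that. Promoter words were matched in 35116 RefSeq sequences by symbol. RefSeq supplied neighbouring genes by order only. The RB1 row of that table starts inside the gene and was not used, and the CCND1 promoter was not used here. With 1 library no test was run. Overlap, tile and stretch counts were tested on simulated data. The members and lists were chosen with earlier results of these data known. All 5 genes and all their intervals are named, with the nearest interval beyond 10 kb. Alternatives varied window, overlap rule, score limit, joining, tiling and words. Software was pandas 2.3.3, numpy 2.4.6 and scipy 1.17.1 under Python 3.11.15, with matplotlib 3.10.9 for figures.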

Additional observations from a re-analysis of the deposited data

How the results depend on the processing

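The count of genes with an EGR1 interval, 3 of 5, stayed at 3 with windows of 1 and 5 kb and when the summit had to lie in the window. It was 4 with 50 kb, which adds CCNE1, 5 with 100 kb, which adds RB1, 2 at a score of 26 or more (CCND1 and CDK4) and 0 at 57 or more, the 90th percentile. The 8 intervals became 16 with 100 kb, 2 at a score of 26 or more, 0 at 57 or more and 4 after joining neighbours within 1000 bp. The highest score in the CDK4 window rose from 42 to 90 with 100 kb, through an interval 93.4 kb before the CDK4 start. The share of tiles with an interval on the gene's own chromosome was 7.84% for CCND1, 23.2% for CCNE1, 6.10% for CDK4, 7.53% for E2F1 and 21.6% for RB1. Tiles with 6 or more were 0.0499% on chromosome 11 and 0.0172% when all tiles were shifted by 0.5 of their length. GGGGCG and GGGCGG each matched in 3 of 3 promoters, the E2F words in 1, the EGR1 words in 0. The own-chromosome tiles, the tiles with 6 or more intervals, the E2F words and the stretches of 6, 5 and 4 intervals were chosen after seeing the data. Using interval midpoints in place of summits kept every interval on its side of the gene start, with the GRCh37 gene ends used here. No paired analysis was possible because each group has 1 library and no test was run. No replicate and no read depth were at hand, so every value holds for 1 library.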
